A study of Mus musculus with 12 samples.

Results

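The mitochondrially encoded genes are the 37 genes of the mouse mitochondrial chromosome, taken here as every symbol starting with mt- among the 55418 symbols of the count table. They comprise 2 rRNA genes, 22 tRNA genes and 13 protein-coding genes. Counts were read in 12 single tendon cells, 6 Tnmd-/- ScxGFP+ cells named KOSC and 6 WT ScxGFP+ cells named WTSC, each followed by the number of the picked cell. All cells came from non-injured Achilles tendons of mice on the C57BL/6 background that carry ScxGFP, a green fluorescent marker of cells that express Scx, a transcription factor of tendon, and were freed with collagenase and picked by micromanipulator. The Tnmd-/- mice lack tenomodulin, a membrane glycoprotein of tendon, constitutively and in every tissue. WT mice were of both sexes, and since the gene is X-linked, females with a single intact copy counted as WT. Ages of the donors of these cells and the animal behind each cell are not given in the labels, so each genotype counted as 1 sample and no test between genotypes was made. Cells were drawn from more than a single tendon, but which cell came from which tendon is not given in the sources used here. The study's heat map marks KOSC09, KOSC10, KOSC20, WTSC04, WTSC05 and WTSC10 as less degraded and the other 3 cells of each genotype as more degraded. The cell KOSC03 was set apart because its mitochondrial share was already known to be high, and its position is a description.

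Mitochondrial DNA is a small circle present in many copies per cell. It is transcribed from both strands into long precursors that are cut apart largely at the tRNAs lying between the other genes, a layout known as tRNA punctuation. The 2 rRNAs build the mitochondrial ribosome, and the 13 mRNAs encode subunits of respiratory complexes I, III and IV and of ATP synthase, while all the proteins that copy, transcribe, process and translate this genome are made from nuclear genes. A high share of mitochondrial reads is widely used as a sign of a damaged or dying cell in single-cell data. Such a share does not tell more mitochondrial RNA from less RNA of the other genes.

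A stretch of chromosome 1 carries a copy of part of this genome, and it bears on which reads could be placed uniquely. The 7 unprocessed pseudogenes at chr1:24611535-24616197 (GRCm38, minus strand, 4663 bases) were at least 99% identical to mitochondrial genes over 100 bases or more. Gm28661 matched mt-Co2, Gm10925 mt-Atp6, Gm28437 mt-Co3 and Gm10222 mt-Nd4l at 100% over nearly the whole gene. Gm28439 matched the first 876 of the 1378 bases of mt-Nd4 at 100%. Only 2 of the 7 copies differed from the mitochondrial gene within the matched bases, each at 1 base. The difference is shown in capitals in the 2 pairs of lines, which give the letters a read would need to span to be told apart there. Positions are counted from 1 at the first base of the mitochondrial gene, with the mitochondrial base written first. The copy of mt-Co1 differed by A1066T within the 483 matched bases at the end of that gene, and the copy of mt-Nd3 by T3C within 345 matched bases.
mt-Co1 (chrM:5328-6872): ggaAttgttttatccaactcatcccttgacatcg
Gm29216: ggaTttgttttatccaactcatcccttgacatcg
mt-Nd3 (chrM:9459-9806): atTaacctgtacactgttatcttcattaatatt
Gm28438: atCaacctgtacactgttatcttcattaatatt

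Counts per length were low in the genes that these copies hold. Summed over the 12 cells, the 5 genes held in a copy over nearly their whole length, namely mt-Co2, mt-Atp6, mt-Co3, mt-Nd3 and mt-Nd4l, had 1193 counts per kilobase in mt-Nd3 to 2212 in mt-Nd4l. KOSC03 supplied 551 of the 657 counts of mt-Nd4l, and without that cell mt-Nd4l had 357 counts per kilobase, the lowest of the 5, and the highest was mt-Nd3 with 1193. Of the genes with no matched copy, mt-Nd6 had 9671, mt-Nd5 22563, mt-Nd2 57326, mt-Nd1 118213 and mt-Cytb 166017 counts per kilobase. The partly copied mt-Co1 and mt-Nd4 lay among them with 98217 and 42084 counts per kilobase. The 5 copied genes thus held 0.619% of the protein-coding mitochondrial counts on 24.5% of the protein-coding length. mt-Atp8, which has no annotated copy to compare and overlaps mt-Atp6, had 206 counts per kilobase from 42 counts in all. It begins in the stretch between mt-Co2 and mt-Atp6. That stretch has 230 bases, and the one between their copies, which was not compared, has 233. The part of the copies in these low values was not tested, since reads with more than 1 placement were not in the counts. The values of the 5 genes hold only reads that could be placed once.

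**Figure D1:**
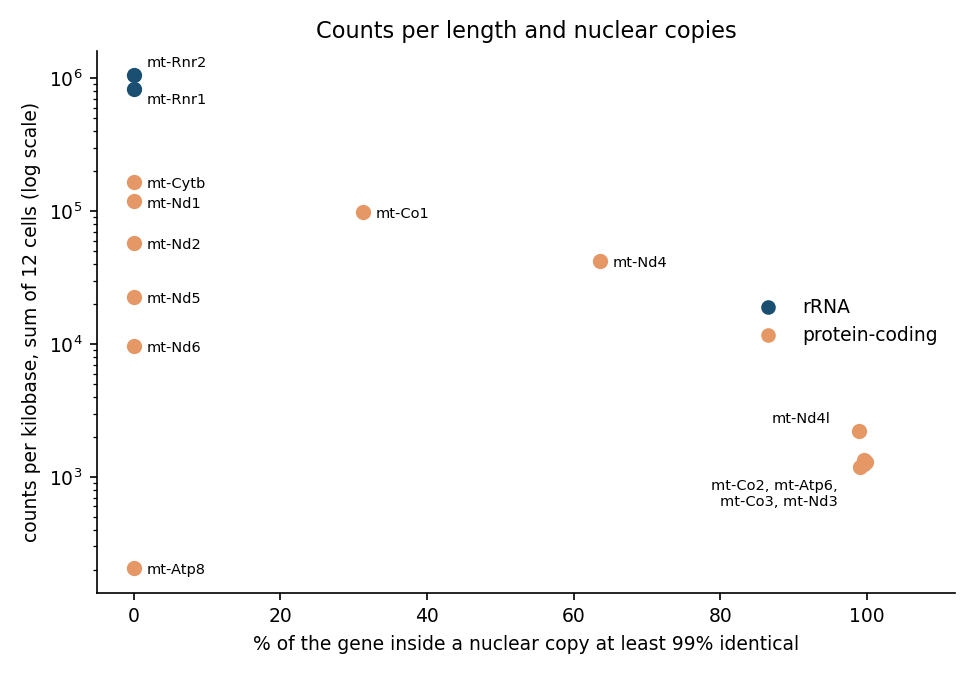
Counts per kilobase summed over the 12 cells (vertical, log scale) against the percent of each gene that lies in a nuclear copy at least 99% identical (horizontal), for the 2 rRNA genes and the 13 protein-coding genes. The 5 genes near 100% lie between 1193 and 2212 counts per kilobase, and mt-Atp8 is the single gene below them. It is drawn at 0% because it has no annotated copy to compare.

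KOSC03 stood apart from the remaining cells in the share of its library that was mitochondrial. The 37 genes took 51.8% of its 1504775 counts (95% Clopper-Pearson interval 51.8 to 51.9%). Among the other Tnmd-/- cells the share was 5.73% in KOSC01, 7.30% in KOSC07, 2.31% in KOSC09, 1.75% in KOSC10 and 2.91% in KOSC20. In the WT cells it was 2.74% in WTSC01, 3.54% in WTSC02, 1.97% in WTSC04, 2.89% in WTSC05, 2.00% in WTSC10 and 2.33% in WTSC14. The value in KOSC03 was 18.95 times the median of the other 11 cells and 7.10 times that of KOSC07, the next highest. Intervals in this text reflect the counting of reads alone, since reads amplified from the same molecule were not marked as such.

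Both raw counts behind the mitochondrial share were extreme in KOSC03. Its 780120 mitochondrial counts were the most of any cell, against 65165 in KOSC07 to 347101 in WTSC05 and a median of 196247 in the other 11. Its 724655 counts outside the 37 genes were the fewest, against 827548 in KOSC07 to 13341313 in WTSC10. KOSC07, the cell nearest to it in non-mitochondrial counts, had a share of 7.30%. Libraries were pooled in equimolar amounts for sequencing, so both counts are parts of a library's reads and do not measure RNA per cell. Over the other 11 cells the share was lower where the total count was higher (Spearman's rho -0.68, Pearson's r -0.81 on log2 values), a description over cells that share their library preparation and in which the total stands in both measures. The number of other genes with at least 1 count was 4365 in KOSC03 and 3493 to 5616 in the other cells.

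**Figure D2:**
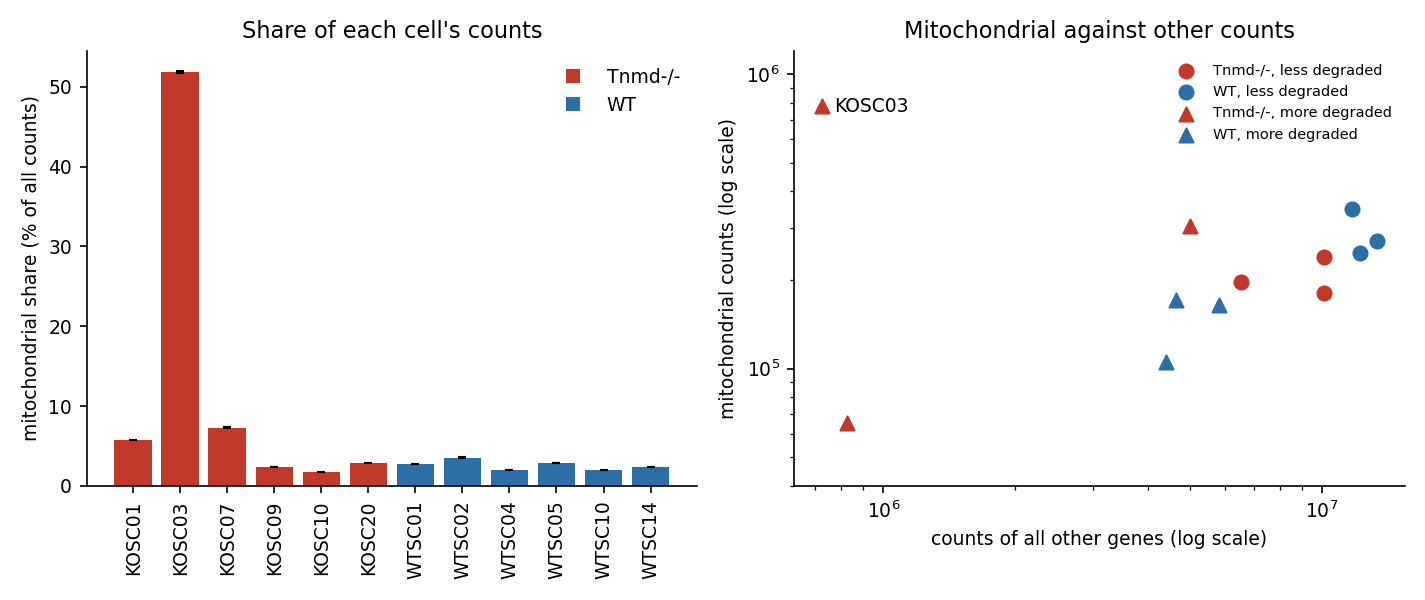
Left, the mitochondrial share of each cell's counts in percent, with exact 95% intervals that are too narrow to see. Right, mitochondrial counts against the counts of all other genes, both on log scales, with circles for less and triangles for more degraded cells, where KOSC03 sits at 780120 mitochondrial and 724655 other counts.

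Class by class, the mitochondrial RNA of KOSC03 lay within the range of the other cells. The 2 rRNAs together made 84.0% of its mitochondrial counts (95% interval 83.9 to 84.1%), within the 58.1% of KOSC10 to 93.7% of KOSC07 and near the median of 80.8% in the other cells. That is 3.22 percentage points above this median, and -0.41 points when counts were first divided by gene length, so that no direction is drawn from it. The 13 mRNAs made 15.96% against 6.27 to 41.9%. The tRNA genes made 0.0100% against 0.000368 to 0.0305%. Both classes were raised in the library: rRNA took 43.6% of all counts in KOSC03 against 1.01 to 6.84%, and the mRNAs 8.28% against 0.284 to 0.816%, and in neither did the range of the other cells reach it. These are parts of the share by which KOSC03 was set apart, so their height restates that choice.

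The 2 rRNA genes dominated every cell. mt-Rnr1 (chrM:70-1024), the 12S rRNA of the small ribosomal subunit, had 210762 counts in KOSC03, or 27.0% of its mitochondrial counts. In the other cells this percent was 12.4 in KOSC10 to 44.8 in WTSC02, with a median of 25.8. mt-Rnr2 (chrM:1094-2675), the 16S rRNA of the large subunit, had 444756 counts or 57.0%, against 37.2% in WTSC04 to 68.5% in KOSC01 and a median of 51.8%. The ratio of mt-Rnr2 to mt-Rnr1 was 2.11 in KOSC03. It ranged from 1.03 in WTSC02 to 3.68 in KOSC10 elsewhere, so that cells differed more among themselves than KOSC03 did from their median of 1.92.

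**Figure D3:**
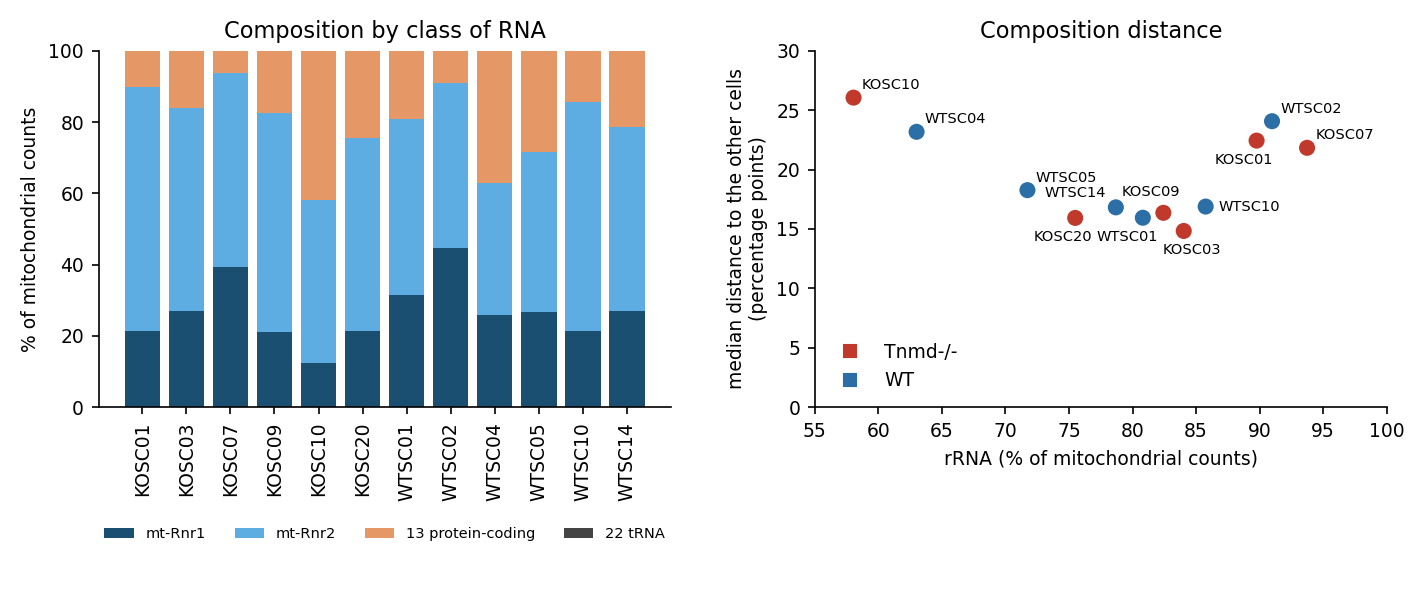
Left, the percent of mitochondrial counts in mt-Rnr1, mt-Rnr2, the 13 protein-coding genes and the 22 tRNA genes (too few to see) in each cell. Right, the median composition distance of each cell to the other 11 in percentage points against its rRNA percent, with KOSC03 lowest at 14.8 and KOSC10 highest at 26.1.

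A distance between 2 cells was taken as the percentage points of mitochondrial counts that would have to move between genes to make them alike. KOSC03 lay at a median of 14.8 points from its 11 partners, the least of all 12 cells, for which the others gave 15.9 in KOSC20 to 26.1 in KOSC10. Its nearest cell was WTSC14 at 8.36 points and its furthest KOSC10 at 26.1. The order turned when rRNA was left out. On the 13 protein-coding genes alone KOSC03 had a median distance of 40.6 points, the third highest of 12, against 24.97 in WTSC10 to 82.3 in KOSC07 and a median of 33.0 in the other cells. Pairs of the same genotype had a median distance of 18.4 points over the 37 genes and pairs of different genotype 19.2, with ranges of 8.83 to 38.5 and 5.08 to 34.1 points that overlap.

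Among the mRNAs, mt-Cytb, mt-Nd1 and mt-Nd2 led in KOSC03. mt-Cytb (chrM:14145-15288), the mitochondrial subunit of complex III, had 48993 counts, or 39.3% of the protein-coding counts, and the other cells 0.539% in KOSC07 to 61.3% in WTSC14. mt-Nd1 (chrM:2751-3707), a membrane subunit of complex I, made 31.1%, second to KOSC01 with 33.3% and above the median of 7.94%. Its 38770 counts compare with 26787 in WTSC05, 16816 in KOSC10 and 10379 in KOSC01, while KOSC07 had 3 and WTSC01 106. mt-Nd2 (chrM:3914-4951), another complex I subunit, made 13.9%, against a median of 8.25% and 82.3% in KOSC07.

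mt-Co1 and mt-Nd5 were at the low end of this composition. mt-Co1, the catalytic subunit of cytochrome c oxidase (complex IV), made 6.01% of the protein-coding counts of KOSC03, the second lowest percent after 0.833% in KOSC07. In the other cells it was 38.3% in KOSC01, 35.7% in KOSC09, 42.5% in KOSC10 and 34.7% in KOSC20, and 31.6% in WTSC01, 16.1% in WTSC02, 35.2% in WTSC04, 15.1% in WTSC05, 17.1% in WTSC10 and 11.9% in WTSC14. Its 7485 counts in KOSC03 were fewer than in 7 of these cells, with 32092 in KOSC10 the most. mt-Nd5 (chrM:11742-13565), a proton-pumping subunit of complex I, made 1.39% in KOSC03, again the second lowest, against a median of 7.73% and a range from 0.00894% in WTSC14 to 23.8% in WTSC02. By complex, KOSC03 had 54.2% of its protein-coding counts in the 7 complex I genes, 39.3% in mt-Cytb, 6.36% in the 3 complex IV genes and 0.0907% in the 2 ATP synthase genes. The medians of the other cells were 49.3%, 30.7%, 31.8% and 0.175%.

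**Figure D4:**
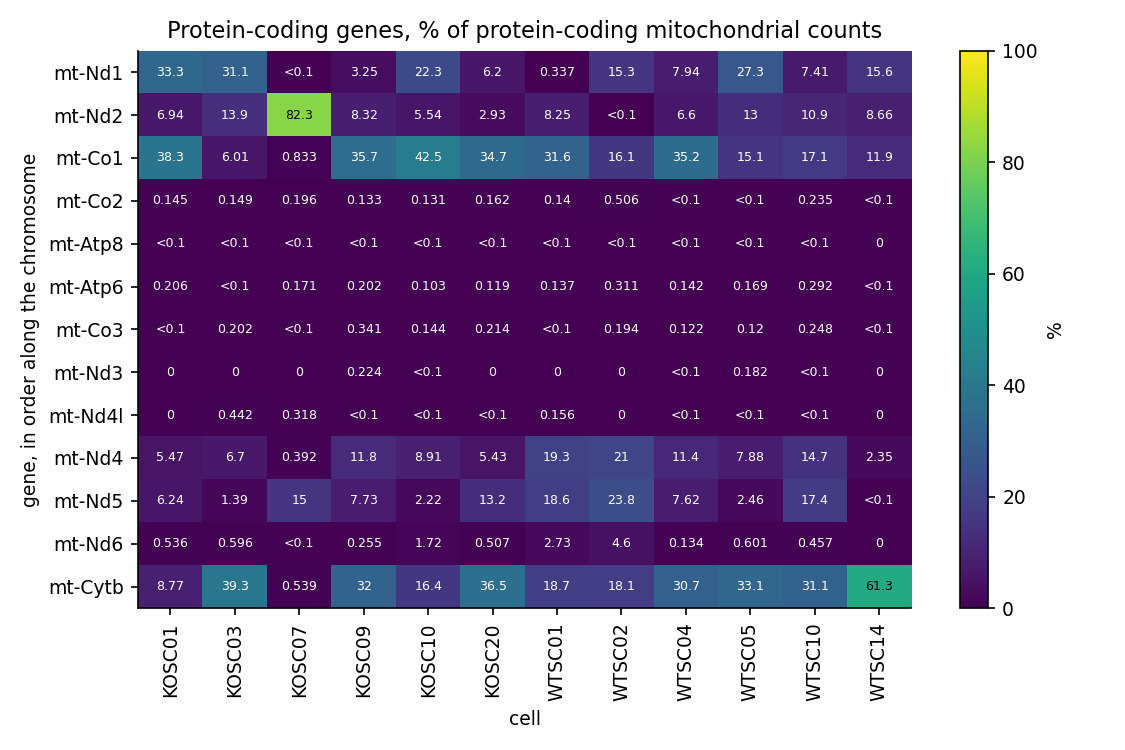
Percent of the protein-coding mitochondrial counts in each of the 13 genes (rows, in order along the chromosome) and each of the 12 cells (columns), with the value printed on the map and values below 0.1% marked as such. mt-Co1 is the leading gene in 5 cells, mt-Cytb in 5 including KOSC03, mt-Nd2 in KOSC07 and mt-Nd5 in WTSC02.

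The leading mRNA changed from cell to cell in both genotypes. KOSC07, with 4084 protein-coding mitochondrial counts the fewest of all, had 3363 of them in mt-Nd2. WTSC14 had 13712 of 22381 in mt-Cytb, together with 2 counts of mt-Nd5 and 0 of mt-Nd6, a complex I subunit and the one mRNA of the light strand (chrM:13552-14070, minus strand). WTSC02 had 9 counts of mt-Nd2, where the other cells had 1407 to 17354. The 9 members of the light strand, mt-Nd6 and 8 tRNA genes, together held 0.168% of all mitochondrial counts. In KOSC03 they held 0.0958% and elsewhere 0.000952% in WTSC14 to 0.748% in KOSC10.

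Gene by gene, 21 of the 37 members had at least 20 counts over the 12 cells, namely both rRNA genes, the 13 protein-coding genes and 6 tRNA genes. As a percent of mitochondrial counts KOSC03 lay within the range of the other 11 cells for 19 of these 21, above it for 2 and below it for 0. Taken the same way, the number of genes beyond the range of the remaining 11 was 0 in KOSC09, KOSC20 and WTSC10, 8 in KOSC10 and 9 in KOSC07. As CPM, counts scaled to a library of 1000000, KOSC03 was highest of the 12 cells for 16 of the 21, among them 11 of 13 mRNAs. Of all 9768 genes with at least 20 counts, 5.68% were highest in KOSC03. On the scale of the non-mitochondrial counts 7.06% of the nuclear genes were. KOSC03 was set apart by its mitochondrial share of the same totals, so the number of members highest there by CPM restates that choice. By raw counts it was highest for 10 of the 21. These are the same mitochondrial counts that enter the share, and the matching percent of all genes was not taken. The 5 members whose CPM was not highest in KOSC03 were mt-Atp8, mt-Nd3, mt-Tv, mt-Te and mt-Tp. For the best counted mRNAs, mt-Cytb stood at 32558 CPM in KOSC03 against 24.6 to 3036, mt-Nd1 at 25765 against 3.36 to 2229, mt-Co1 at 4974 against 38.1 to 3114 and mt-Nd5 at 1152 against 0.443 to 975.2.

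The members above the range by percent, mt-Nd4l and mt-Tr, are neighbours on the chromosome. mt-Nd4l (chrM:9877-10173), a small complex I subunit, had 551 counts in KOSC03. The other Tnmd-/- cells had 0 in KOSC01, 13 in KOSC07, 1 in KOSC09, 3 in KOSC10 and 22 in KOSC20. The WT cells had 49 in WTSC01, 0 in WTSC02, 3 in WTSC04, 12 in WTSC05, 3 in WTSC10 and 0 in WTSC14. It made 0.0706% of the mitochondrial counts of KOSC03, and the highest of the other cells was WTSC01 with 0.0299%. Its nuclear copy Gm10222 had 36 counts in all, 25 of them in KOSC03. Since gene and copy are identical over the first 294 of 297 bases, reads of one cannot be told from reads of the other there.

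mt-Tr (chrM:9808-9875), the arginine tRNA gene that lies just before mt-Nd4l, had 54 of its 57 counts in KOSC03, 2 in KOSC20 and 1 in KOSC01, with 0 in the other 9 cells. It lies in the 70 bases between mt-Nd3 and mt-Nd4l. Their copies on chromosome 1 are 74 bases apart, and that stretch was not compared. mt-Tp (chrM:15356-15422, minus strand), the proline tRNA gene, was as uneven elsewhere, with 65 of 72 counts in WTSC04, 6 in KOSC10, 1 in WTSC02 and 0 in KOSC03 and the other cells. mt-Te (chrM:14071-14139, minus strand), the glutamate tRNA gene, had 27 of 37 counts in KOSC10, 4 in KOSC01, 3 in WTSC05, 2 in KOSC09 and 1 in WTSC10. Each of these 3 genes had most of its reads in 1 cell. The genes mt-Tr and mt-Tp are printed because a single cell held nearly all reads of each, and capitals mark the longest run of A, which is 8 bases long in mt-Tr.
mt-Tr: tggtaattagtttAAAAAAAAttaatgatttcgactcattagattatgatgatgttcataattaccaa
mt-Tp: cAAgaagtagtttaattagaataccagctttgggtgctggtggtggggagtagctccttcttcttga

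The remaining tRNA genes were rarely counted. The 22 tRNA genes are 59 to 75 bases long and together had 281 of 3069888 mitochondrial counts. The part of their length in this was not tested. mt-Tv had 28 counts in all, 22 of them in KOSC01. mt-Tm had 34, 16 of them in KOSC03, and mt-Ta 26, 11 of them in KOSC10. The 7 genes mt-Tf, mt-Tl1, mt-Tq, mt-Tc, mt-Ts1, mt-Ts2 and mt-Tl2 had 1 to 14 counts each. The 9 genes mt-Ti, mt-Tw, mt-Tn, mt-Ty, mt-Td, mt-Tk, mt-Tg, mt-Th and mt-Tt had 0, which with a limit of 3 counts allows a share of up to 9.77e-05% of the mitochondrial counts. This limit, too, is for reads placed once.

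mt-Nd3, a membrane subunit of complex I, was the one mRNA with 0 counts in KOSC03, which allows up to 0.000385% of its mitochondrial counts. That limit is for reads placed once and sets none on mt-Nd3 RNA, since the copy Gm28438 matches 345 of its 348 bases. It was counted in 5 cells, with 94 counts in KOSC09, 55 in KOSC10, 62 in WTSC04, 179 in WTSC05 and 25 in WTSC10. These are 5 of the 6 cells that the study's annotation marks as less degraded, and KOSC20, the sixth, had 0 as did the 6 more degraded cells. The 5 cells with mt-Nd3 counts also had the highest totals, from 10304509 in KOSC10 to 13613080 in WTSC10. KOSC20 had a total of 6742665. The parts of degradation and depth in this were not tested. mt-Co2, mt-Atp6 and mt-Co3 had counts in all 12 cells, in KOSC03 186, 109 and 252, and stood within the range of the other cells as a percent of mitochondrial counts.

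Between genotypes, the mitochondrial share of the summed counts was 5.03% over the Tnmd-/- cells, against 2.44% over the WT cells, which gave a log2 ratio of 1.04. KOSC03 alone supplied 44.2% of the mitochondrial counts of the Tnmd-/- sum. Without it the share of the Tnmd-/- cells was 2.93% and the log2 ratio 0.26, and the ranges of the cells overlapped, with 1.75 to 7.30% against 1.97 to 3.54%. The annotated degradation moved with this result, and so did depth. Totals were 6742665 to 13613080 counts in the less and 892713 to 5991316 in the more degraded cells, ranges that do not overlap. In the less degraded cells the shares were 2.25% in Tnmd-/- and 2.27% in WT, a log2 ratio of -0.014. In the more degraded cells they were 14.9% and 2.87%, and 5.96% and 2.87% without KOSC03, a log2 ratio of 1.05 that rests on KOSC01 and KOSC07. The parts of degradation and depth in the difference were not tested, and with the animal unknown genotype and animal cannot be told apart.

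Of the 21 members with at least 20 counts, 5 had a pooled log2 ratio above 1 with 1 CPM added, and 0 were below -1. They were mt-Rnr2 (1.29), mt-Nd1 (1.32), mt-Co3 (1.21), mt-Tr (1.39) and mt-Nd4l (2.98). Over all 9768 genes 35.5% were above 1 and 34.9% below -1, so that the share of members above 1 was below that of genes in general. Without KOSC03, 0 of the 21 were past either limit, where 33.5% of all genes were above 1 and 35.3% below -1. The median log2 ratio of the 21 members was 0.77 with and 0.17 without KOSC03, beside 0.06 and 0 for all genes tested. For no member did the CPM of the 6 Tnmd-/- cells and the 6 WT cells fail to overlap, and 0.041% of all genes had ranges that did not overlap.

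Within the degradation levels the members did not move alike. In the less degraded cells the only members past the limits were mt-Nd6 at 1.33 and mt-Tp at -1.15, where 65 of the 72 mt-Tp counts came from WTSC04. Over all genes tested in these cells 28.3% were above 1 and 31.2% below -1. In the more degraded cells 15 of 21 were above 1 and 0 below -1, beside 29.6% and 25.6% of all genes. Without KOSC03 4 were above 1 (mt-Tv, mt-Rnr2, mt-Nd1 and mt-Nd2) and 3 below -1 (mt-Nd4, mt-Nd6 and mt-Cytb), beside 24.9% and 26% of all genes, so that the members were then called no more often than genes in general. As a percent of mitochondrial counts rRNA ranged from 58.1 to 85.8% in the less and from 78.7 to 93.7% in the more degraded cells, ranges that overlap. KOSC03 with 84.0% lay in both.

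Summed over lists, nuclear genes that serve the mitochondrial genome or chain were at the low end in KOSC03, on a scale that leaves the 37 genes out (CPM of all other counts). The 78 genes of mitochondrial ribosomal proteins summed to 386 CPM in KOSC03, the lowest of 12 cells, against 835 in WTSC02 to 5260 in KOSC07. The 87 nuclear genes of respiratory chain subunits summed to 2467 CPM, again the lowest, against 3613 in KOSC07 to 11347 in KOSC20. Atp5b, the catalytic beta subunit of ATP synthase, had 16 counts in KOSC03 and 33 in KOSC07, where the other cells had 329 to 26318. Cox6b1, a subunit of complex IV, had 15 counts in KOSC03 and 1 to 10832 elsewhere. Single genes, named after their values were seen, carried much of both sums. Atp5l, another ATP synthase subunit, had 1249 counts in KOSC03 (1724 CPM, against 0 to 109 elsewhere), or 69.9% of the respiratory chain sum, which without it was 744 CPM against 3612 to 11251. Mrpl42 had 118 counts, or 42.1% of the ribosomal protein sum, which without it was 224 CPM against 835 to 5260. Of the 79 respiratory chain genes with at least 20 counts 1 was highest in KOSC03, where 7.06% of all nuclear genes were. Among the mitochondrial mRNAs of this cell the share of complex IV was at the low end too, but those of complexes I and III were above the median. As CPM of all counts, mt-Co1, mt-Co2 and mt-Co3 were each highest in KOSC03, so the scales do not give the same order.

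Genes for transcription and upkeep of mitochondrial DNA were sparse. The 17 of them summed to 11.04 CPM in KOSC03, against 7.03 in WTSC14 to 1242 in KOSC20 with a median of 387, and none reached 10 counts. Tfb2m, a transcription factor of the mitochondrial promoters, had 3 counts there and Ssbp1, the single-strand DNA-binding protein of mitochondria, 4. The 29 genes of mitochondrial RNA processing summed to 322 CPM against 21.8 to 1496. Of this sum 94.4% came from 220 counts of Fastkd1, a gene named after its values were seen, which had 0 counts in the other 11 cells, and without it the sum was 17.9 CPM, the lowest of the 12 cells. KOSC03 had 7 counts of Rexo2, an oligoribonuclease, and 3 of Trmt10c, a subunit of the enzyme that cuts tRNA 5′ ends. Among the ribosomal proteins Mrps2 had 0 and Mrpl36 3 counts. These genes were also absent from single other cells, for example Trmt10c had 0 counts in 5 of the other 11.

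Malat1 and Neat1, long RNAs kept in the nucleus, went the other way on the same scale. Together they summed to 52654 CPM of the other counts in KOSC03, second to KOSC07 with 56164, where the remaining 10 cells had 1527 to 9579. By raw counts both genes lay within the range of the other cells. KOSC03 had 35576 counts of Malat1, against 10321 in WTSC14 to 97381 in WTSC05. Of Neat1 it had 2580, against 8 in WTSC02 to 5295 in WTSC14. By CPM the 2 cells highest in these nuclear RNAs were also the 2 with the highest mitochondrial shares and the fewest other counts. The other counts divide this CPM and are part of the total behind the share, so these measures are not independent. The part of RNA loss or quality in the mitochondrial share was not tested.

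**Figure D5:**
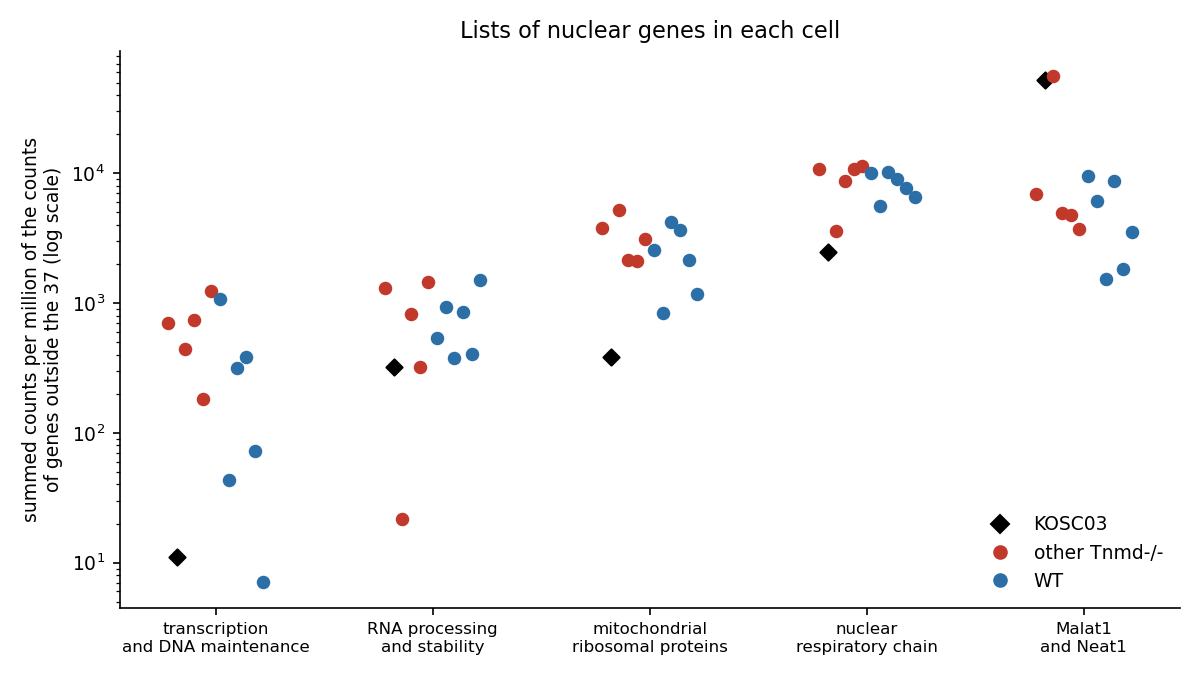
Summed CPM, of the counts outside the 37 genes and on a log scale, for 5 lists of nuclear genes in each cell, with KOSC03 as black diamonds. KOSC03 is lowest for mitochondrial ribosomal proteins (386) and the nuclear respiratory chain (2467) and second highest for Malat1 and Neat1 (52654).

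Tendon fibroblast markers were low in KOSC03 on the scale of the other counts. The 14 tendon fibroblast markers summed to 3776 CPM of the other counts in KOSC03, below the 16901 to 182218 of the other cells. Of these 14, 7 were seen, led by Dcn with 1397 counts, while Scx, Tnmd, Mkx, Col1a1 and Col3a1 were at 0. Col1a1 and Col3a1 were both at 0 also in KOSC09, KOSC10 and WTSC10, and Mkx in KOSC01, KOSC07, KOSC20 and WTSC01. Scx itself was at 0 in 7 of the 12 cells, and Tnmd at 0 in 7, with 10178 counts in WTSC14, 7 in WTSC02 and at most 5 in any Tnmd-/- cell. The 11 skeletal muscle markers summed to 46.9 CPM in KOSC03, from 22 counts of Myh1 and 12 of Myh2 with Acta1 and Ckm at 0, and to at most 7.25 elsewhere. Of 4 heart muscle markers Tnnt2 had 61 counts (84.2 CPM, against up to 261 in WTSC05) and Myh6 0, and of 7 endothelial markers Pecam1 had 3. The 7 immune, 5 red blood cell, 5 mural, 5 adipocyte, 4 glia and 5 cartilage markers were all at 0 in KOSC03. Their part in the mitochondrial share was not tested.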

How the data were processed

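The table that the authors deposited gives, for each gene and each cell, a raw count of reads. RNA of single cells was amplified by Smart-Seq2, which reads along whole transcripts and tags no molecules. The authors trimmed reads with BBDuk, kept those that BioBloom placed exclusively in mouse, aligned them with STAR 2.5.1b to GRCm38 and counted uniquely mapping exon reads with featureCounts of Subread 2.0.0. The strand setting and the treatment of reads over 2 genes are not given in the sources used here. Totals were 892713 to 13613080 counts per cell.

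The members, the lists of nuclear genes and the markers were chosen with earlier results of these data known. Every mt- symbol was split by name into rRNA, tRNA and protein-coding genes. All 37 had the same length in GENCODE M21, the annotation used for coordinates, in which all 55418 symbols were found. Nuclear copies were sought among its transcripts with BLAST 2.17.0 (at least 99% identity over 100 bases). Named are both rRNA genes, the mRNAs, tRNA genes with at least 20 counts (the 3 best counted with their values by cell), the copies, markers, and the 2 best counted genes of each nuclear list.

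Shares, percents of mitochondrial counts and CPM were computed in Python 3.11.15 (scipy 1.17.1, numpy 2.4.6, pandas 2.3.3). A distance is the sum of absolute differences in percent over the genes, divided by 2. Pooled ratios used counts summed over a genotype with 1 CPM added. The steps were tested on simulated data. Alternatives were TMM factors of edgeR 4.0.16 and size factors of DESeq2 1.42.0 (R 4.3.3), equal cell weights, other denominators, sets of genes, minimums and pseudocounts, thinning, each degradation level, and each cell left out. Degradation levels came from the annotation bar of the study's heat map. The study's own tests with cells as replicates were not rerun.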

Additional observations from a re-analysis of the deposited data

Results flagged for a closer look

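Within each genotype of 6 cells, 20 measures of the mitochondrial genes were examined for a cell far from the rest by Dixon's ratio, the gap to the nearest cell divided by the range, and 6 of 40 groups held one. Chance flags about 1 in 20 groups where values follow a normal distribution, and measures of one cell are not independent of each other. Some of these measures are near 0 in most cells, so that rate need not hold. No excess over chance is read from the number flagged. The mitochondrial percent of all counts in KOSC03 was 51.8% and the next Tnmd-/- cell had 7.30%. This cell was set apart by that same share, so the value restates the choice and is no evidence, which leaves 5 of the other 39 groups. mt-Nd4l made 0.0706% of the mitochondrial counts in KOSC03, where the next cell of its genotype had 0.0199%. In the WT cells mt-Nd4l stood out in WTSC01 with 0.0299%, against 0.00346% in the next cell. The tRNA percent of mitochondrial counts was 0.0293% in WTSC04, where 65 of 72 tRNA counts came from mt-Tp, against 0.00427% in the next WT cell. mt-Nd2 made 5.16% of the mitochondrial counts of KOSC07, and 2.32% in the next Tnmd-/- cell. mt-Nd6 made 0.722% in KOSC10, and 0.124% in the next.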

How the results depend on the processing

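The log2 ratio of the pooled mitochondrial share, 1.04, was 2.22 with equal cell weights, 1.08 over the counts of all other genes, 0.74 for the protein-coding genes and 1.06 without the genes copied in the nucleus. With equal weights it was 3.37 under TMM factors and 5.21 under DESeq2 size factors. It was 2.38 in the more degraded cells, 1.05 there without KOSC03 (an alternative chosen after seeing the data) and -0.014, the reverse direction, in the less degraded cells. Leaving out 1 cell gave 0.26 (without KOSC03) to 1.39. The share in KOSC03 over the median of the other cells, 18.95, was 38.3 over the counts of other genes, 15.8 for protein-coding genes, 19.5 without copied genes, 18.8 after thinning to the shallowest cell, 45.7 under TMM and 262 under DESeq2 factors, and 18.4 to 20.5 with 1 cell left out. The rRNA difference of 3.22 points became 1.07 without copied genes, -0.41 per kilobase and 2.41 to 4.28 with 1 cell left out. Members beyond the range in KOSC03, 2 in the main setting, were 1 with a minimum of 100 counts, 1 among the protein-coding genes and 2 to 4 with 1 cell left out (4 without KOSC07 or WTSC14). The composition distance of 14.8 became 40.6 for protein-coding genes, 14.6 without copied genes and 14.2 to 15.4 with 1 cell left out. Without copied genes KOSC03 was barely the least, at 14.55 points beside 14.59 in WTSC01. Members past 2-fold, 5 in the main setting, were 3 with 5 CPM added, 9 under TMM, 15 under DESeq2 factors, 2 in the less and 15 in the more degraded cells, and 0 (without KOSC03) to 12 (without KOSC09) with 1 cell left out, with 9 without KOSC10. In the main setting 35.5% of all 9768 genes were above 1 and 34.9% below -1. That share was not taken with 5 CPM added, under TMM or DESeq2 factors, or without a cell other than KOSC03. The counts of members in those settings are therefore not read as a result about the members. The cause of the shifts between settings was not tested. No paired analysis was possible because the shared numbers 1 and 10 only name picked cells and no test was made. Fewer than 20 counts were found for 16 tRNA genes, and tRNA counts did not follow depth, with 1 in WTSC10, the deepest cell, and 55 in KOSC10.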
